A study of Homo sapiens with 12 samples.

Results

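The genes described here are 10 genes of the MHC class II pathway, taken by symbol from the 58735 rows of a count table of THP1 cells: HLA-DRA, HLA-DRB1, HLA-DPA1, HLA-DPB1, HLA-DQA1, HLA-DQB1, HLA-DMA, HLA-DMB, CD74 and CIITA. Each symbol stood on 1 row. The genes were listed by pathway and not by a measured value, but earlier results of these data were known at the time. The libraries, 3 per group, came from THP1, a human monocytic leukemia cell line labelled WT. The cells were kept for 24 h in endothelial medium, either in mono-culture or in transwell inserts above human umbilical vein endothelial cells (ECs). The ECs had received DMSO (control ECs), the DNA-damaging drug etoposide (senECs, for senescent ECs) or etoposide and then EGCG, a green tea catechin (EGCG-treated senECs). Every group, mono-culture included, was then stimulated with 100 ng/ml LPS, a bacterial cell wall component, for 2 h, and no unstimulated library was analysed here. The replicates are numbered 1, 2 and 3 in mono-culture and with control ECs, and 1, 2 and 5 with senECs and EGCG-treated senECs. Nothing in the labels says that they were separate cultures, so p-values measure the spread between these libraries, which may be technical. The model is 1 leukemia line with exchange of released material, vesicles included, through a membrane. Primary monocytes and direct cell contact were therefore not measured.

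MHC class II molecules are pairs of an alpha and a beta chain that carry peptides from endosomes to the cell surface, where CD4+ T cells read them. The classical pairs are HLA-DR, HLA-DP and HLA-DQ. CD74, the invariant chain, escorts new pairs to the endosome and blocks their groove until HLA-DM, made of the HLA-DMA and HLA-DMB chains, helps load a peptide. CIITA is the coactivator that switches these genes on, and it is bound at their promoters by the RFX complex, CREB1 and NF-Y, which sit on paired X and Y boxes. Monocytes carry class II at the surface, and interferon gamma raises it through CIITA.

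The X and Y boxes are shown because they are where the complex that recruits CIITA is known to bind class II genes. RefSeq promoter sequences (GRCh38.p14) were at hand for 8 of the 10 members, in 9 entries; HLA-DRA and CIITA had no entry. In the 250 bases before each start, an X core (AGNNACNGA) was followed within 40 bases by a Y core (ATTGG or its complement CCAAT) in 4 of these 8 member genes, with 24 or 25 bases between the cores, and not in the entries of CD74, HLA-DMB, HLA-DPA1 and HLA-DPB1. Capitals mark the X core and then the Y core in these stretches, written 5′ to 3′ on the strand of the gene:
HLA-DRB1, chr6:32589880-32589937, minus strand: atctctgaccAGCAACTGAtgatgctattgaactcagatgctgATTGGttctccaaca
HLA-DRB5, chr6:32530363-32530420, minus strand: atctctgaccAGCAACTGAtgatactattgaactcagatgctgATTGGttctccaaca
HLA-DQB1, chr6:32666731-32666788, minus strand: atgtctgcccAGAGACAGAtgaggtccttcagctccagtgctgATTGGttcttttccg
HLA-DQA1, chr6:32637294-32637352, plus strand: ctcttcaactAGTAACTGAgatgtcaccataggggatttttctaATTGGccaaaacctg
HLA-DMA, chr6:32953162-32953220, minus strand: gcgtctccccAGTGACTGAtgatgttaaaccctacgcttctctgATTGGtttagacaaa
HLA-DRB5, a further DR beta gene, is no member and is shown for its likeness to HLA-DRB1. On either strand, such a pair of cores stood in 0.826% of the 35116 RefSeq promoters, an X core alone in 12.3% and a Y core in 32.0%. The core letters were chosen after these promoters had been read, the matches say nothing about binding, and the sequences are those of the reference and not of the THP1 alleles. The pair was shared by genes of very different level: HLA-DRB1 and HLA-DQA1, which both hold it, stood at the top and the bottom of the members by joined exons.

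Class II transcripts were scarce in these cells. The 10 members held 22559 counts over the 12 libraries, 0.0103% of all counts, and CD74 and HLA-DRB1 held 82.7% of them. Library totals ranged from 15439836 to 22092600 counts. All 10 members passed the filter of 10 counts in total, while 6 (HLA-DRA, HLA-DRB1, HLA-DQB1, HLA-DMA, CD74 and CIITA) had at least 10 counts in every library and a mean above 1 CPM (counts scaled to a common library size with TMM factors). The positions below are those of GENCODE 29 on GRCh38.

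CIITA (ENSG00000179583.19, chromosome 16, 10866222 to 10943021, plus strand), the master coactivator, stood at 25 to 88 counts per library. In mono-culture its level was 2.80, 3.01 and 3.08 CPM, and with control ECs 3.36, 3.87 and 2.67 CPM. With senECs it was 1.81, 2.72 and 1.51 CPM, and with EGCG-treated senECs 2.25, 2.48 and 2.73 CPM. In CPM, each library of the senEC and EGCG-treated senEC groups lay below the lowest mono-culture library, and both groups overlapped the control EC libraries. Of all genes, 8.5% and 7.72% were lower without overlap in these comparisons with mono-culture. The gap was narrow (at most 2.72 and 2.73 CPM against 2.80 CPM). In raw counts the groups overlapped, with up to 47 and 51 counts against 45 to 56 in mono-culture.

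CD74 (ENSG00000019582.14, chromosome 5, 150401637 to 150412929, minus strand), the invariant chain, was the member with the most counts, 798 to 1191 per library. Its levels were 49.6, 59.5 and 57.6 CPM in mono-culture and 45.4, 50.0 and 54.4 CPM with control ECs. They were 50.7, 60.5 and 72.0 CPM with senECs and 49.3, 65.3 and 50.5 CPM with EGCG-treated senECs. The highest library was senEC replicate 5, the lowest was control EC replicate 1, and all 4 groups overlapped.

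The HLA-DR pair was unequal. HLA-DRB1 (ENSG00000196126.11, chromosome 6, 32578769 to 32589848, minus strand), a beta chain, measured 24.5, 35.2 and 37.8 CPM in mono-culture and 23.3, 24.9 and 32.2 CPM with control ECs. With senECs it measured 24.5, 28.7 and 41.7 CPM and with EGCG-treated senECs 25.1, 29.1 and 39.5 CPM, so that the groups overlapped. HLA-DRA (ENSG00000204287.13, chromosome 6, 32439842 to 32445046, plus strand), the alpha chain of every DR molecule, measured 1.62, 4.25 and 3.69 CPM in mono-culture and 0.864, 2.77 and 2.61 CPM with control ECs. It measured 1.81, 1.45 and 3.51 CPM with senECs and 1.34, 2.03 and 2.41 CPM with EGCG-treated senECs, again with overlap of all groups. Within a group the highest HLA-DRA library was 1.80 to 3.21 times the lowest, against 1.38 to 1.70 times for HLA-DRB1. Per length of all exons joined (FPKM, the CPM divided by the length in kilobases), HLA-DRB1 lay above HLA-DRA in 12 of 12 libraries, by 8.62 to 28.1 times.

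HLA-DQ and HLA-DM showed unequal chains as well. HLA-DQB1 (ENSG00000179344.16, chromosome 6, 32659467 to 32668383, minus strand), the DQ beta chain, measured 6.84, 12.5 and 10.5 CPM in mono-culture and 6.38, 7.73 and 8.06 CPM with control ECs. With senECs it stood at 8.05, 6.54 and 8.34 CPM and with EGCG-treated senECs at 7.13, 8.51 and 8.46 CPM. Replicates 2 and 3 of mono-culture were above all other libraries, and replicate 1 of mono-culture lay among the co-cultures. HLA-DQA1 (ENSG00000196735.11, chromosome 6, 32628179 to 32647062, plus strand), its alpha partner, had only 1 to 4 counts in each library, with no more to be said of its groups at this depth. The mean FPKM of HLA-DQB1 was 71.0 times that of HLA-DQA1 by joined exons, and 46.1 times by the length of the principal transcript.

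HLA-DMA (ENSG00000204257.14, chromosome 6, 32948613 to 32969094, minus strand), the alpha chain of the peptide loader, measured 2.61, 4.63 and 4.68 CPM in mono-culture and 2.45, 2.37 and 3.00 CPM with control ECs. It measured 3.15, 2.89 and 4.59 CPM with senECs and 2.19, 3.11 and 4.34 CPM with EGCG-treated senECs. The highest library of each other group (4.68, 4.59 and 4.34 CPM) lay above the highest control EC library, and all groups overlapped. HLA-DMB (ENSG00000242574.8, chromosome 6, 32934629 to 32941070, minus strand), its beta partner, was at 0 in control EC replicate 1 and in EGCG-treated senEC replicates 1 and 5. A count of 0 allows up to 3 counts, or 0.144, 0.183 and 0.161 CPM in these libraries (counting error only). In the others HLA-DMB had 3 to 13 counts, among them 4, 11 and 9 in mono-culture and 7, 11 and 9 with senECs. Control EC replicates 2 and 3 had 7 and 3 counts. The mean FPKM of HLA-DMA was 17.6 times that of HLA-DMB (11.9 times by the principal transcript).

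The HLA-DP chains were both near the detection limit. HLA-DPB1 (ENSG00000223865.10, chromosome 6, 33075926 to 33087201, plus strand), the beta chain, had 6, 6 and 10 counts in mono-culture, 7, 26 and 12 with control ECs, 2, 7 and 2 with senECs, and 5, 8 and 14 with EGCG-treated senECs. HLA-DPA1 (ENSG00000231389.7, chromosome 6, 33064569 to 33080775, minus strand), the alpha chain, had 0 to 7 counts per library, with the 0 in control EC replicate 2. Only control EC replicate 2 exceeded 1 CPM of HLA-DPB1, at 1.14 CPM.

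**Figure D1:**
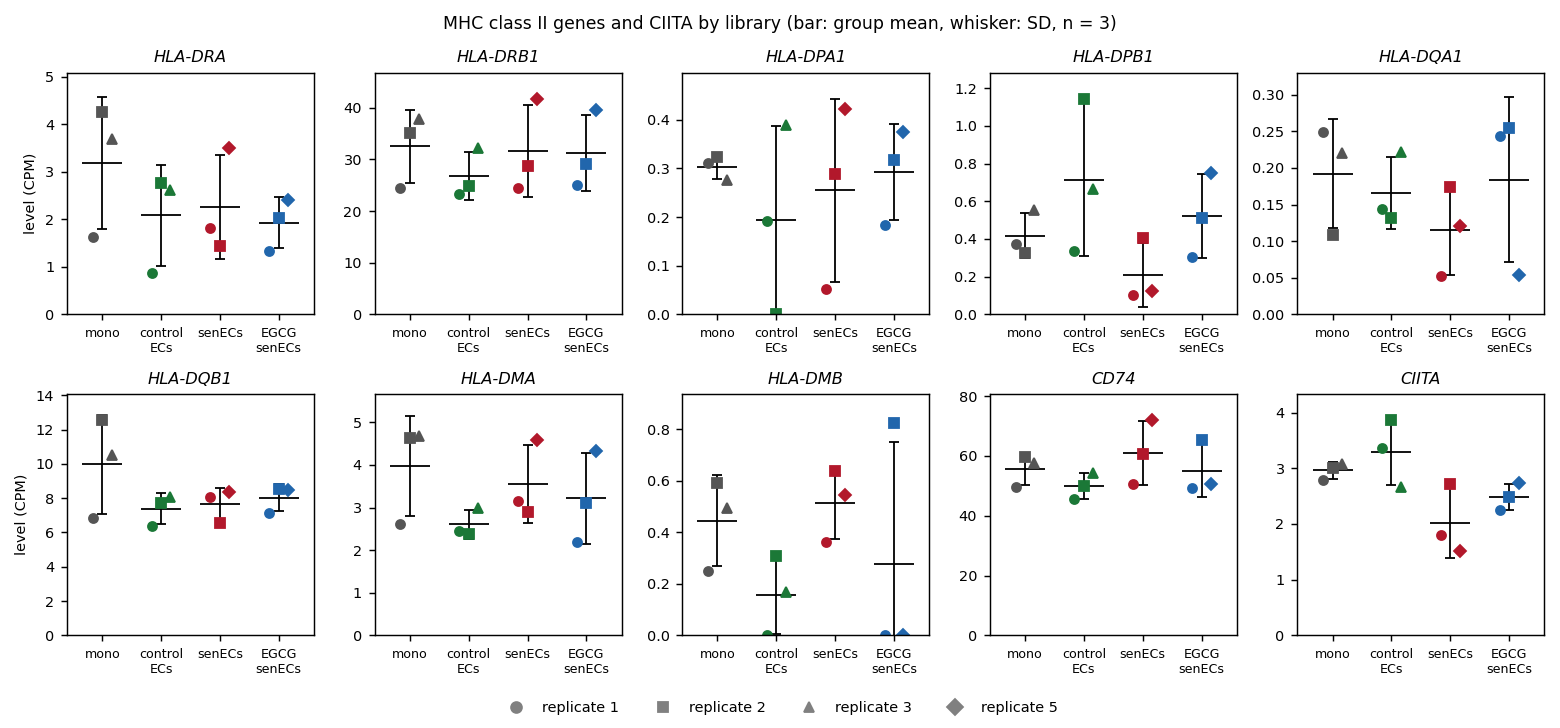
Level of each gene in CPM (y axes, from 0, with a scale per gene) in the 12 libraries by group (x axes); shapes mark replicate numbers, long bars the group means and whiskers the SD (n = 3; whiskers are drawn only down to 0). In CPM, CIITA lies narrowly below every mono-culture library in the senEC and EGCG-treated senEC groups, while CD74, HLA-DRB1 and HLA-DRA overlap in all groups. Of all genes, 8.5% (senECs) and 7.72% (EGCG-treated senECs) were lower than mono-culture without overlap.

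Compared per length, HLA-DRB1 was highest by joined exons, with a mean of 24.9 FPKM over the 12 libraries, and CD74 followed with 17.4 FPKM. HLA-DRA (1.85 FPKM), HLA-DQB1 (1.68 FPKM) and HLA-DMA (1.32 FPKM) formed a middle tier. HLA-DPB1 (0.167 FPKM), CIITA (0.130 FPKM), HLA-DMB (0.0748 FPKM), HLA-DPA1 (0.0454 FPKM) and HLA-DQA1 (0.0237 FPKM) were the lowest. With the length of the principal transcript, CD74 was first at 56.5 FPKM ahead of HLA-DRB1 at 24.9 FPKM, and HLA-DRA fell behind HLA-DQB1 and HLA-DMA (1.85 against 4.76 and 2.97 FPKM). The order of neighbours therefore rests on the transcript model, whereas CD74 and HLA-DRB1 were the first 2 under both lengths.

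**Figure D2:**
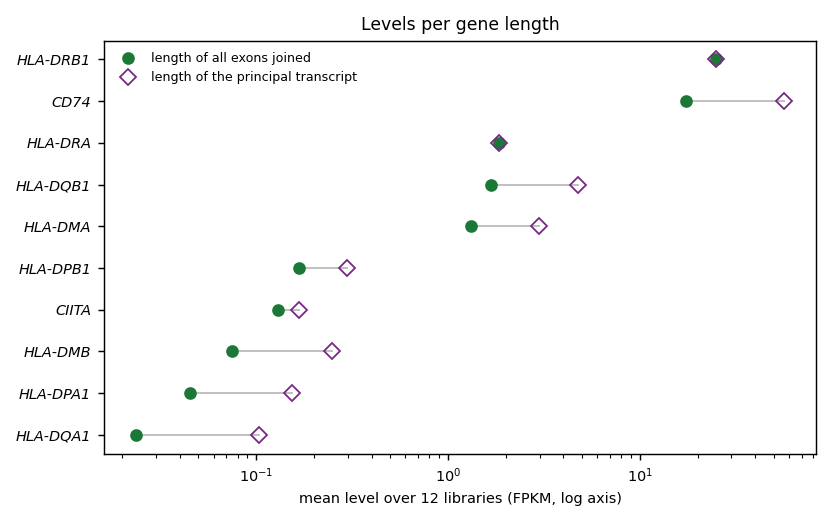
Mean level over the 12 libraries in FPKM (x axis, log scale) of each gene (y axis), by the length of all exons joined (filled circles) and of the principal transcript (open diamonds). CD74 and HLA-DRB1 lie above 17 FPKM under both lengths, HLA-DRA near 1.85, and CIITA, HLA-DPA1, HLA-DPB1, HLA-DQA1 and HLA-DMB below 0.3.

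Several features of the locus bear on these levels. HLA-DRB5 (7.88 ± 2.52 to 9.50 ± 1.67 CPM as group means ± SD, n = 3) took 17.1 to 24.2% of the counts of HLA-DRB1 and HLA-DRB5 together. Their principal transcripts are identical at 92.7% of 1185 aligned bases, so that the split between them is uncertain, although they share no window of 100 bases and neither does any pair of members. HLA-DMB shares 438 exonic bases and HLA-DMA 174 with AL645941.2 on the same strand, a row with 0 counts. CIITA shares 2416 exonic bases with DEXI on the opposite strand (798 counts against 597 of CIITA over the 12 libraries), HLA-DMA 55 with BRD2 (90675 against 725 counts) and HLA-DPA1 96 with HLA-DPB1. The strand setting of the counting was not given in the sources used here, so reads in these stretches cannot be assigned with certainty. Across the 12 libraries CIITA and DEXI had a Pearson r of 0.097 in log2(CPM + 2), and HLA-DMA and BRD2 one of -0.067. Class II genes are also highly polymorphic, and how many reads of the THP1 alleles failed to align to the reference was not tested.

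The first question is whether the secretome of control ECs (what they release, vesicles included) changed class II transcripts in the monocytes. With control ECs against mono-culture, 0 of the 10 members passed edgeR's quasi-likelihood test at a Benjamini-Hochberg adjusted p of 0.05, where 0.143% of the 25873 genes tested were called. An unadjusted p under 0.05 was reached by 1 member in edgeR and by 0 in DESeq2, against 6.52% of all genes in edgeR. With 1 library left out this count ran from 0 to 4, with the 4 reached without mono-culture replicate 1. Of the members 2 stood higher and 8 lower, with a median log2 fold change of -0.36, while the median of all genes was 0.0051 and 50.7% of them stood higher. HLA-DQB1 had a log2 fold change of -0.44 ± 0.20 (standard error, as below), with an unadjusted p of 0.0450 and an adjusted p of 0.755 from edgeR. The values for HLA-DMA were -0.62 ± 0.29 and for HLA-DRA -0.62 ± 0.43 (edgeR adjusted p 0.767 and 0.893). With 1 library left out, HLA-DRA ran from -0.93 to -0.25. CD74 had -0.15 ± 0.14 and CIITA 0.16 ± 0.26 (edgeR adjusted p 0.940 and 0.980). No member was without overlap between these groups, where 6.25% of all genes were higher and 6.51% lower without overlap.

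Against senECs the question is the same for the secretome of senescent cells. With senECs against mono-culture, 0 of 10 members passed (background 0.309% of genes), and 0 had an unadjusted p under 0.05 in edgeR or DESeq2 (11% of all genes in edgeR). CIITA had a log2 fold change of -0.56 ± 0.27, or 0.679 times the mono-culture level, with a 95% interval from -1.13 to 0.013, an unadjusted p of 0.0550 and an edgeR adjusted p of 0.468. It was the 1 member without overlap, lower in senECs, where 8.5% of all genes were lower and 8.18% higher without overlap. HLA-DRA had -0.51 ± 0.43 and CD74 0.14 ± 0.14 (edgeR adjusted p 0.719 and 0.781), and HLA-DQB1 had -0.39 ± 0.20 (edgeR adjusted p 0.510). With 1 library left out, HLA-DRA ran from -0.97 to -0.25 and CD74 from 0.00063, without senEC replicate 5, to 0.25. Again 2 members stood higher and 8 lower, with a median of -0.33 against -0.015 over all genes, of which 48% stood higher. The number higher ran from 1 to 4 with 1 library left out, and the median from -0.45 to -0.20.

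With EGCG-treated senECs against mono-culture, 0 of 10 members passed (background 0.213%), and 0 had an unadjusted p under 0.05 in edgeR or DESeq2 (8.58% of genes in edgeR). CIITA was once more the 1 member lower without overlap, as were 7.72% of all genes (6.4% were higher), with a log2 fold change of -0.25 ± 0.27 (edgeR adjusted p 0.848). HLA-DRA had -0.73 ± 0.43 and CD74 -0.014 ± 0.14 (edgeR adjusted p 0.666 and 0.994). Of the members 1 stood higher and 9 lower, at a median of -0.16 where all genes had a median of -0.00134. With 1 library left out the number higher ran from 1 to 4 and the median from -0.27 to -0.14. These 3 comparisons share the mono-culture libraries, so that the lower side of the members in each is not independent evidence.

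The study's main contrast sets senECs against control ECs. Here 0 of 10 members passed edgeR's test, as did 0 of all genes (0%), while an unadjusted p under 0.05 was reached by 3 members in edgeR and 2 in DESeq2, against 6.61% of all genes in edgeR. The count of 3 became 0 without control EC replicate 2 or without senEC replicate 5, and 1 without senEC replicate 1. The 3 members did not move one way. CIITA, the coactivator, had a log2 fold change of -0.71 ± 0.27 (0.609 times the control EC level, 95% interval -1.28 to -0.15), with an unadjusted p of 0.0158 and an edgeR adjusted p of 0.728. HLA-DPB1 had -1.75 ± 0.69 (unadjusted p 0.0190, edgeR adjusted p 0.728), on the few counts given above. CD74, a target of CIITA, had 0.29 ± 0.14, with an unadjusted p of 0.0459 and the same edgeR adjusted p of 0.728.

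HLA-DRA had a log2 fold change of 0.11 ± 0.43 in senECs against control ECs (edgeR adjusted p 0.972). HLA-DMB was the 1 member without overlap and higher in senECs, as were 5.31% of all genes (5.66% were lower). HLA-DMB had 7 counts in both senEC replicate 1 and control EC replicate 2, so only the scaling to library size parted them (0.361 against 0.308 CPM). Its log2 fold change of 1.64 ± 1.09 had an interval from -0.64 to 3.91 (edgeR adjusted p 0.757). HLA-DMA had 0.44 ± 0.30 (edgeR adjusted p 0.760). Altogether 7 members stood higher and 3 lower, with a median of 0.17 against -0.0066 for all genes, of which 49.2% stood higher. This direction depended on single libraries. Without senEC replicate 5 there were 3 members higher and the median was -0.088. Without control EC replicate 1 there were 5 higher, with a median of 0.051. The 95% interval ran from 0.0059 to 0.57 for CD74 and was wider for HLA-DRA, from -0.80 to 1.02, so that at this depth and spread a change of HLA-DRA within those bounds could not be told from none.

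EGCG-treated senECs against senECs asks whether the treatment of the ECs altered the response. In this comparison 0 of 10 members and 0 of all genes (0%) passed in edgeR, and 0 members had an unadjusted p under 0.05 in edgeR or DESeq2, against 2.22% of all genes in edgeR. CIITA had a log2 fold change of 0.31 ± 0.28 with an interval from -0.27 to 0.89, HLA-DRA -0.21 ± 0.44 and CD74 -0.15 ± 0.14 (edgeR adjusted p 1.0 for each). HLA-DPB1 had 1.30 ± 0.71 (unadjusted p 0.0798, edgeR adjusted p 1.0). The members divided into 5 higher and 5 lower, at a median of 0.029 beside 0 for all genes. With 1 library left out the number higher ran from 4 to 8 and the median from -0.19 to 0.19. Each member overlapped, where 3.17% of all genes were higher and 2.31% lower without overlap.

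EGCG-treated senECs against control ECs gave 0 of 10 members and 0% of all genes in edgeR, with 0 members at an unadjusted p under 0.05 in edgeR or DESeq2 (4.55% of genes in edgeR). CIITA had -0.41 ± 0.27, HLA-DRA -0.10 ± 0.44 and CD74 0.14 ± 0.14 (edgeR adjusted p 0.979, 0.993 and 0.979). There were 7 members higher and 3 lower, at a median of 0.14 beside 0 for all genes. Without EGCG-treated senEC replicate 2 there were 4 higher, and the median was -0.071. Each member overlapped, where 4.04% of all genes were higher and 5.45% lower without overlap. The 3 comparisons among co-cultures share groups with each other. In bulk RNA, fewer cells that express a gene and less RNA per cell cannot be told apart.

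**Figure D3:**
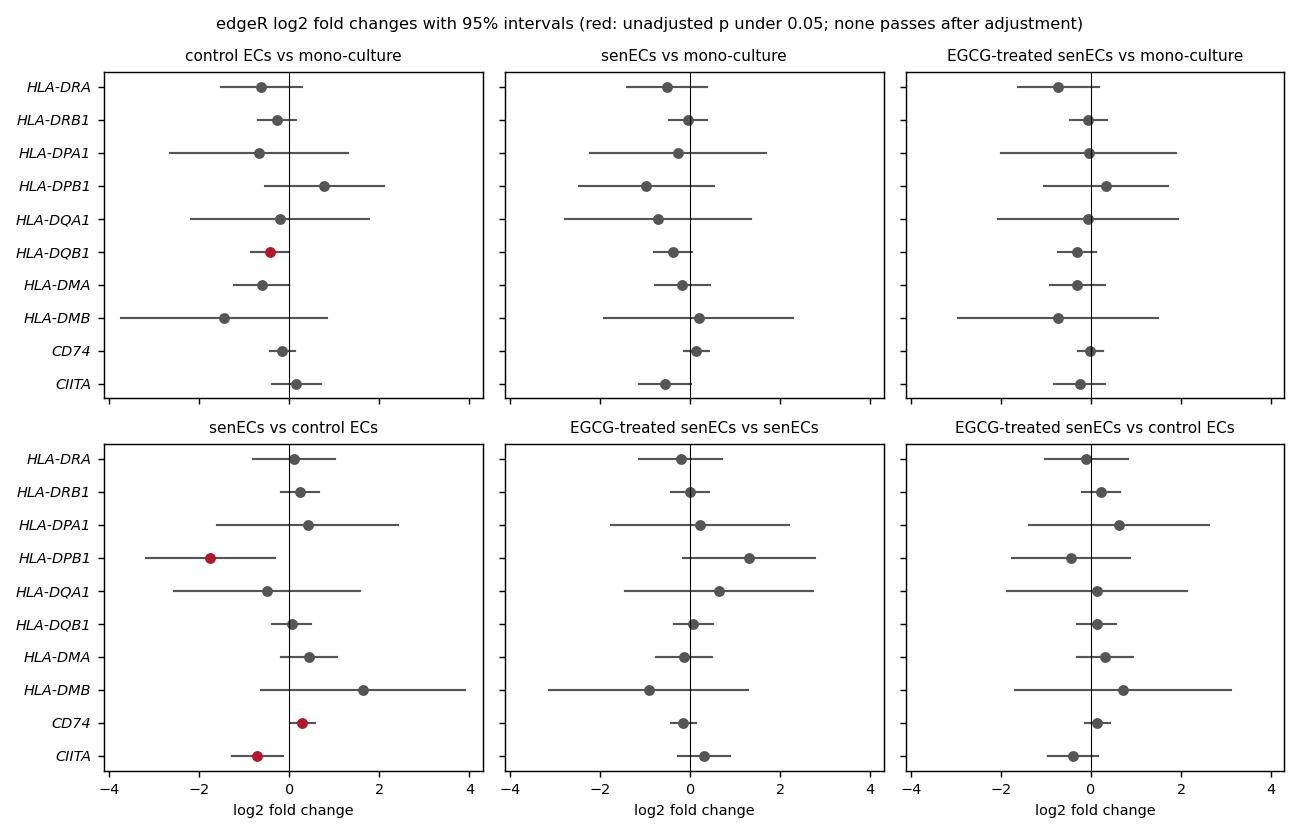
edgeR log2 fold changes (x axis; points) with 95% intervals (lines) of the 10 genes (y axis) in the 6 comparisons (panels). Of the 4 points in red, with an unadjusted p under 0.05, 1 is HLA-DQB1 with control ECs against mono-culture, 3 are HLA-DPB1, CD74 and CIITA in senECs against control ECs, and none passes after adjustment.

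For HLA-DRB1, HLA-DPA1 and HLA-DQA1 the range of the 4 group means was smaller than the pooled SD within groups. For the other 7 members it was larger, with 1.29 against 0.458 CPM for CIITA, 2.58 against 1.64 CPM for HLA-DQB1, 0.505 against 0.254 CPM for HLA-DPB1 and only 1.26 against 1.07 CPM for HLA-DRA. Means of 3 libraries scatter without any group effect, so a range of 4 means above the SD is not by itself a group difference. The highest group mean was 1.21 times the lowest for HLA-DRB1 (32.5 ± 7.07 CPM in mono-culture, SD, n = 3, against 26.8 ± 4.73 CPM with control ECs) and 1.22 times for CD74 (61.1 ± 10.6 CPM with senECs against 50.0 ± 4.49 CPM with control ECs). For HLA-DRA it was 1.65 times (3.19 ± 1.39 CPM in mono-culture against 1.93 ± 0.543 CPM with EGCG-treated senECs), and for CIITA 1.64 times (3.30 ± 0.602 CPM with control ECs against 2.01 ± 0.629 CPM with senECs). The group order of CIITA was control ECs, mono-culture, EGCG-treated senECs (2.49 ± 0.239 CPM) and senECs. No neighbours in that order passed edgeR's test (adjusted p 0.980, 0.848 and 1.0). The libraries of mono-culture and EGCG-treated senECs did not overlap in CPM, and 7.72% of all genes were lower without overlap in that comparison.

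Across libraries, the correlations of CIITA with its target genes were low or negative. Among HLA-DRA, HLA-DRB1, HLA-DQB1, HLA-DMA and CD74, the 10 pairs had Pearson r from 0.41 to 0.91 over the 12 libraries in log2(CPM + 2), the highest being HLA-DRB1 with HLA-DMA. The 5 pairs with CIITA ran from -0.47 (CD74) to 0.031 (HLA-DQB1). After subtraction of the group means, r ran from 0.52 to 0.93 among the former and from -0.18 to -0.14 with CIITA. These values describe libraries that share groups, depth and preparation, so no p is given. CIITA rests on few counts (597 over the 12 libraries), as do HLA-DRA (517) and HLA-DMA (725).

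**Figure D4:**
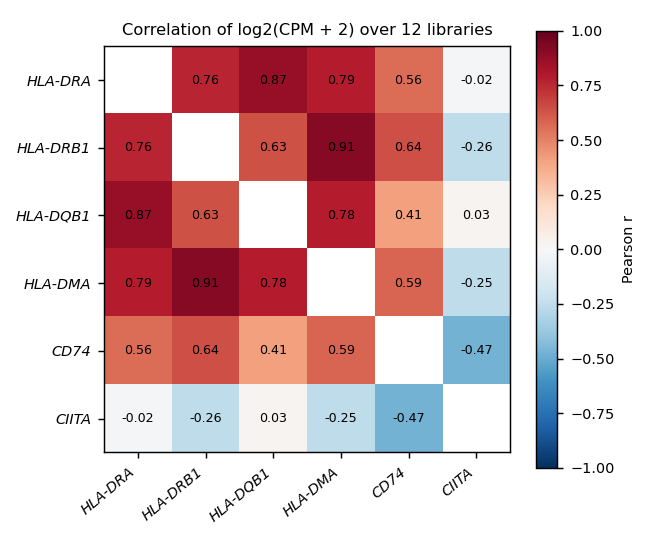
Pearson r of log2(CPM + 2) over 12 libraries between the 6 genes with a mean of at least 1 CPM (rows and columns; color scale from -1 to 1). The 5 class II genes correlate at 0.41 to 0.91 with each other, whereas CIITA stands at -0.47 to 0.031 with each of them.

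The non-member genes most like the mean z-score of these 6 members were CRK, an adaptor protein (r = 0.97), HACD4, an enzyme of long fatty acid synthesis (r = 0.95), SCPEP1, a serine carboxypeptidase (r = 0.95), LTA4H, the leukotriene A4 hydrolase (r = 0.94), and CTSS, cathepsin S, which cuts the invariant chain (r = 0.94). They were taken from 14391 genes over the 12 libraries, of which 203 had an r of at least 0.8, so CTSS was 1 of many.

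The genes around class II were followed in lists that were chosen with earlier results of these data known. The factors that bind the X and Y boxes were detected throughout: of RFX5, RFXAP, RFXANK, NFYA, NFYB, NFYC and CREB1, 7 of 7 had a mean above 1 CPM in each group, with a summed level between 1206 and 1388 CPM in the 12 libraries. Most of the sum was NFYC (832 to 944 CPM by group mean), and RFXAP was the lowest (7.47 to 9.08 CPM). In each of the 6 comparisons 0 of 7 were called in edgeR or DESeq2, with 0 or 1 at an unadjusted p under 0.05 in edgeR. Over all genes, 2.22 to 11% by comparison had such an unadjusted p in edgeR. RFXANK, a subunit of the RFX complex, had a log2 fold change of 0.33 ± 0.12 in senECs against control ECs (edgeR adjusted p 0.728). Of the 13 inducers and repressors of CIITA, edgeR called 0 in any comparison, with 0 to 4 at an unadjusted p under 0.05. DESeq2 called 2 of them in senECs against mono-culture, SPI1 and JAK2, where it called 347 of all 25873 genes. SPI1 (PU.1), a myeloid transcription factor, had a log2 fold change of 0.41 ± 0.11 there (edgeR adjusted p 0.135). IRF8, a myeloid regulator, stood at 628 ± 75.3 to 682 ± 12.5 CPM by group (SD, n = 3), and IRF4, its lymphoid relative, at 0.0415 ± 0.0360 to 0.267 ± 0.117 CPM. JAK2, a kinase of the interferon gamma receptor, had -0.39 ± 0.11 in senECs against mono-culture (edgeR adjusted p 0.158).

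Of the endosomal proteases and their partners, 0 of 10 were called in any comparison by edgeR or DESeq2, with 0 to 3 at an unadjusted p under 0.05 in edgeR and 10 of 10 standing higher in senECs than in control ECs at a median log2 fold change of 0.26, where 49.2% of all genes stood higher. In EGCG-treated senECs against control ECs, which share the control libraries, 10 of 10 stood higher too, at a median of 0.30. The cathepsins CTSB and CTSD, which degrade proteins in the endosome, had 0.84 ± 0.24 and 0.62 ± 0.22 in senECs against mono-culture (edgeR adjusted p 0.181 and 0.295). With 1 library left out, both were called in that comparison only without senEC replicate 1, where the calls among all genes rose from 80 to 255. IFI30, the thiol reductase of the endosome, was listed at 0 to 17 counts per library, and 997 of its exonic bases lie in another gene on the same strand, AC007192.1, so its level is uncertain. Among the co-stimulatory and adhesion genes 0 of 8 were called by edgeR or DESeq2, with 0 at an unadjusted p under 0.05 in edgeR and 8 of 8 higher in senECs than in control ECs at a median of 0.26, as were 8 of 8 in EGCG-treated senECs at a median of 0.22. The genes of both lists were measured in the same libraries, so their shared direction is not independent evidence. Within senECs, CTSB ran from 545 to 1231 CPM and ICAM1 from 168 to 414 CPM. Whether these directions hold with 1 library left out was not examined. CD40 and CD83 were measured at 46.4 ± 17.8 to 61.2 ± 26.2 CPM and 112 ± 47.3 to 132 ± 67.4 CPM by group, while the group means of CD86 were at most 0.194 CPM. MARCH1 and MARCH8, ubiquitin ligases that remove class II from the surface, had 0 of 2 called in edgeR or DESeq2, and 0 at an unadjusted p under 0.05. Of the other class II genes, HLA-DRB3 and HLA-DRB4 have no row in the table, 4 of the 9 present were at 0 in all libraries, 4 were tested and 0 were called in edgeR or DESeq2, with 0 or 1 at an unadjusted p under 0.05 in edgeR. HLA-DOB, the beta chain of the HLA-DM inhibitor HLA-DO, stood at 0.874 to 1.63 CPM by group mean, while HLA-DOA, its alpha partner, was at 0 throughout.

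The cells carried the transcripts of their label. Of 10 THP1 and monocytic markers, 9 had a mean above 1 CPM in each group. CD68 was listed at 2 to 16 counts, with 1789 of its exonic bases inside AC016876.2 on the same strand. CD14, the LPS co-receptor, was the only listed gene that edgeR called in any comparison: it was 2.09 ± 0.42 higher in senECs than in mono-culture on the log2 scale (edgeR adjusted p 0.0363), at 38.2 ± 25.1 against 8.92 ± 2.67 CPM, a call lost in 7 of the 12 fits with 1 library left out. Endothelial markers summed to 21.9 to 28.1 CPM in mono-culture and 25.3 to 34.8 CPM in the co-cultures, mostly EGFL7, and 3 of 12 had a mean above 1 CPM over the 12 libraries. CDH5, the endothelial cadherin, had 0 counts in every library with control ECs or senECs and at most 1 count elsewhere. B cell and dendritic cell markers, of cells rich in class II, summed to 244 to 344 CPM, mostly FLT3, with FCER1A at 0 in all libraries and MS4A1 at most at 1 count. FLT3 was at 323 ± 4.80 CPM in mono-culture and 251 ± 26.3 CPM with senECs (edgeR adjusted p 0.143, and called by DESeq2). The part of these markers in the class II values was not tested.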

How the data were processed

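The values are whole-number read counts per gene that the authors deposited without normalization. Per the labels and the processing notes, libraries were sequenced by Novogene and reads aligned with HISAT2 to hg38; the counting program, strand setting and annotation are not given in the sources used here. Of the columns, 12 match a labelled sample, and 4 others were not used. All 57169 distinct symbols occur in GENCODE 29, which gave positions and lengths. Genes with at least 10 counts over the 12 libraries (25873) were tested in edgeR 4.0.16 (R 4.3.3) with TMM, quasi-likelihood F tests, all 12 libraries in 1 model, 6 two-sided contrasts and Benjamini-Hochberg adjustment over all genes at 0.05. Standard errors are the log2 fold change over the square root of F. Between replicates of a group, counts differed by more than sampling noise (chi-square per degree of freedom at least 9.23). Fold changes are printed for CIITA, HLA-DRA and CD74 by rule and for other members and list genes chosen after their values were seen. Members, lists and rules were chosen with earlier results of these data known. Alternatives were DESeq2 1.42.0, its size factors, other count filters, a replicate block, only the 6 libraries compared, and each library left out. The test scripts were first tested on simulated data.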

Additional observations from a re-analysis of the deposited data

How the results depend on the processing

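No member was called in any of the 6 comparisons by edgeR or under any of the 18 other settings, and the smallest adjusted p of a member was 0.270, for HLA-DQB1 with control ECs against mono-culture under the replicate block (log2 fold change -0.42). Log2 fold changes were recomputed for 28 values: all those of CIITA, HLA-DRA and CD74, and those of other members with a low unadjusted p in the reported edgeR fit. This rule left out the values of the other members nearest to no change, so a kept sign was favoured. Of 500 recomputed log2 fold changes, 489 kept their sign and side of the threshold and 11 turned sign. The 11 all came with 1 library left out and fell in 5 values. Their ranges with a library left out were -0.16 to 0.048 for CD74 in EGCG-treated senECs against mono-culture, -0.35 to 0.38 for HLA-DRA in senECs against control ECs, -0.45 to 0.25 for HLA-DRA in EGCG-treated senECs against senECs, -0.48 to 0.17 for HLA-DRA in EGCG-treated senECs against control ECs, and -0.00122 to 0.20 for CD74 in that comparison. For CIITA these ranges were -0.99 to -0.55 in senECs against control ECs and -0.83 to -0.40 in senECs against mono-culture. Among all genes, the replicate block called 469, 709 and 424 against mono-culture (37, 80 and 55 without it) and 153, 13 and 34 among the co-cultures (0 without it), but 0 members in each comparison. With control ECs against mono-culture 4 members, all lower, had an unadjusted p under 0.05 in edgeR under the block, against 1 without it. So had 2458 of all 25873 genes under the block. In senECs against control ECs the block gave 4 members, against 3 without it, and 2237 of all genes. Of these members CD74 and HLA-DMB were higher, and CIITA and HLA-DPB1 lower. The block gave 1 member in EGCG-treated senECs against mono-culture and 0 in each other comparison. DESeq2 called 120, 347 and 230 genes against mono-culture and 0 among co-cultures. Testing every row with a count called 223, 588, 377, 114, 14 and 43 genes. Of the list genes, testing every row called CD14, FCGR1A, SPI1, CTSB, CTSD, CTSH, CTSL and ICAM1 in senECs against mono-culture, and the block CD14, FCGR1A, SPI1, FLT3, PRDM1, CTSB, CTSD and ICAM1. CTSB and CTSD were also called by both in EGCG-treated senECs against mono-culture and in senECs against control ECs. In these 2 fits edgeR's prior degrees of freedom were 1200 (block) and infinite (every row), against 11.2 in the reported fit, so that all genes were given nearly 1 shared spread and genes of large spread got small p-values. Libraries of the same number did not all deviate together (Pearson r over 14397 genes 0.50, 0.093 and 0.42 for control ECs with mono-culture, and 0.55, 0.070 and 0.34 for EGCG-treated senECs with senECs). Those numbered 1 did so in every pair of groups, with r from 0.46 to 0.58. Since not every library correlated best with its own number, the numbers were not taken to pair the samples in the reported fit. What the libraries numbered 1 share therefore stays in the spread of that fit. In the block fit, replicate 2 stood above replicate 1 for HLA-DRA (log2 0.87 ± 0.28, edgeR adjusted p 0.0375) and CD74 (0.27 ± 0.087, edgeR adjusted p 0.0474), a contrast of that same fit, chosen after seeing the data, that called 4.88% of all genes. DESeq2 gave no adjusted p in 12 cases for members. Depth limits HLA-DPA1, HLA-DPB1, HLA-DQA1 and HLA-DMB, with 26 counts or fewer in each library.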

Other observations

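Some members had their lowest or highest libraries at the same replicate numbers in several groups, a pattern noticed in the data and given as values only. HLA-DRB1 and CD74 were lowest in replicate 1 in 4 of 4 groups, HLA-DRA, HLA-DQB1, HLA-DPB1 and HLA-DMB in 3 of 4 (ties at 0 not counted), HLA-DMA, HLA-DPA1 and CIITA in 2 of 4, and HLA-DQA1 in 1 of 4. HLA-DRB1 and HLA-DMA were highest in the replicate numbered 3 or 5 in 4 of 4 groups, HLA-DPA1 in 3 of 4, HLA-DRA, HLA-DPB1, HLA-DQB1, CD74 and CIITA in 2 of 4, HLA-DQA1 in 1 of 4 and HLA-DMB in 0 of 4. The mean z-score of the 6 members with at least 1 CPM was -0.63 in mono-culture replicate 1 and 1.19 in replicate 2, -0.90 in control EC replicate 1, -0.60 in senEC replicate 1 and -0.87 in EGCG-treated senEC replicate 1. The labels do not say what the replicate numbers share, and this was not tested.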
